A study of Homo sapiens with 21 samples.

Results

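Tubulin is the building block of microtubules, hollow filaments that form the mitotic spindle and carry cargo through the cell. Each block is a dimer of 1 alpha and 1 beta tubulin, and both are encoded by small families of closely related genes whose products are called isotypes. Cells also sense how much soluble tubulin they hold: the protein TTC5 binds new tubulin chains as they leave the ribosome, and with SCAPER it recruits the CCR4-NOT deadenylase, which removes the tubulin mRNA. The RNA of 10 tubulin genes is described here, 10 of the 60671 genes in the table, comprising 4 alpha genes (TUBA1A, TUBA1B, TUBA1C and TUBA4A) and 6 beta genes (TUBB, TUBB2A, TUBB2B, TUBB3, TUBB4B and TUBB6). They were chosen by symbol, and the choice was made with their responses to tunicamycin in these same libraries known. Their values in those comparisons are therefore given as a description without p-values, and the counts of genes past a threshold there describe the selected genes and test nothing. Tests of these genes are read only in comparisons without tunicamycin. Lists of related genes were also drawn up with earlier results known. Their genes carry p-values adjusted over all genes tested, which are not independent support for a list.

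Tunicamycin blocks the first step of N-linked glycosylation and so loads the endoplasmic reticulum (ER) with unfolded protein. Polyadenylated RNA was sequenced from OCI-AML3, a human acute myeloid leukaemia line, and from HEK293T, a line derived from human embryonic kidney that carries the SV40 large T antigen. There were 7 groups of 3 libraries. In OCI-AML3 they were untreated cells at 0 h, DMSO (the solvent) for 4 h, tunicamycin at 1 μg/mL for 4 h, DMSO for 24 h and tunicamycin at 1 μg/mL for 24 h. In HEK293T they were DMSO and tunicamycin at 1 μg/mL, both for 24 h. No group carried a genetic change made for the study in these libraries, as far as the labels say. The labels do not say that the 3 replicates were separate cultures, so p-values measure the spread between these libraries.

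Libraries held 13838466 to 19961798 counts, and 3 counts, the limit that a count of 0 allows, came to 0.137 to 0.231 CPM (counts scaled to a common library size) of counting error alone. The labelled lines matched most of their markers. Over the 5 OCI-AML3 groups the mean of PTPRC, the pan-leukocyte antigen CD45, ranged from 263 to 431 CPM and that of the myeloid factor SPI1 from 211 to 286 CPM, whereas the myeloid granule enzyme MPO reached only 1.03 to 1.52 CPM. In HEK293T, PTPRC and MPO were at 0 and SPI1 was at most 0.129 CPM. CDH2 was at 69.0 and 82.8 CPM in the 2 HEK293T groups and the keratin KRT18 at 45.1 and 52.4 CPM, PAX2 was at 1.11 and 1.39 CPM, and the epithelial keratin KRT19 was at 0 in both lines.

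The 3′ coding end of an alpha tubulin gene encodes the tail that tubulin-modifying enzymes act on. The last 48 coding bases of the canonical transcripts (GENCODE release 44, GRCh38), with the final codon before the stop in capitals, are shown for TUBA4A and, for comparison, TUBA1C.
TUBA1C, chr12:49273180-49273227, plus strand: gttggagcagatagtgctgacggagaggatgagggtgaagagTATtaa
TUBA4A, chr2:219250352-219250399, minus strand: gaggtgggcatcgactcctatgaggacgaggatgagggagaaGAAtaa
TUBA1C ended in TAT, a codon of tyrosine, the residue that vasohibins remove and the ligase TTL puts back. TUBA4A ended in GAA, a codon of glutamate, so that its protein is made without that tyrosine. Over the whole coding sequence TUBA1A and TUBA1B were 97.2% identical. TUBA4A was 84.4 to 85.7% identical to the other alpha genes, and the alpha and beta genes were 54.9 to 57.6% identical to each other.

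The coding start is what TTC5 reads in its translated form. The first 12 bases, with the 3 codons after the start in capitals, differed little within each family.
TUBA1A, TUBA1B and TUBA1C: atgCGTGAGTGC
TUBA4A: atgCGTGAATGC
TUBB and TUBB4B: atgAGGGAAATC
TUBB3 and TUBB6: atgAGGGAGATC
TUBB2A: atgCGCGAGATC
TUBB2B: atgCGTGAGATC

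The likeness of these genes bears on how well their reads can be assigned. No window of 150 bases in the canonical transcript of TUBA4A, TUBB4B or TUBB6 occurred in another alpha or beta tubulin gene or pseudogene. The share of such windows found elsewhere was 2.31% in TUBB3, 2.66% in TUBB, 7.22% in TUBA1C, 8.01% in TUBA1A, 19.1% in TUBA1B, 41.6% in TUBB2B and 48.7% in TUBB2A. The counting tool divides a read that fits several genes between them. Counts farther than 1e-09 from a whole number were found in all 21 libraries for TUBA1A, TUBA1B and TUBA1C, in 19 for TUBB2A, 20 for TUBB2B and 11 for TUBB3, and in 0 for TUBA4A, TUBB, TUBB4B and TUBB6. TUBB2A and TUBB2B shared the most windows, and the 50 tubulin pseudogenes in the table together held at most 0.458% of tubulin counts in any library.

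TUBA4A lies on chromosome 2 (219249710 to 219277902, minus strand, 4 exons in its canonical transcript) and encodes an alpha isotype abundant in brain, muscle and platelets. Its level was 35.5, 38.6 and 36.2 CPM in untreated OCI-AML3 cells, 33.8, 28.4 and 28.2 CPM after DMSO for 4 h and 35.7, 29.2 and 32.2 CPM after DMSO for 24 h. Under tunicamycin it was 14.4, 14.1 and 14 CPM at 4 h and 11.4, 9.38 and 8.60 CPM at 24 h. HEK293T cells had far less of it, 4.41, 3.53 and 3.38 CPM under DMSO and 1.46, 1.53 and 1.61 CPM under tunicamycin. Every tunicamycin library was below every DMSO library of its own line and time.

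The log2 fold change of TUBA4A, tunicamycin over DMSO, was -1.09 (SE 0.11) at 4 h and -1.73 (SE 0.11) at 24 h in OCI-AML3 and -1.30 (SE 0.18) at 24 h in HEK293T, with n = 3 per group. Among the 14012 genes tested it stood at the 1.36th, 0.357th and 1.21st percentile of these fold changes, counted from the strongest decrease. In order of level the groups ran untreated (36.8 CPM ± 1.62, SD), DMSO 24 h (32.4 ± 3.24), DMSO 4 h (30.1 ± 3.20), tunicamycin 4 h (14.2 ± 0.199), tunicamycin 24 h (9.79 ± 1.44), HEK293T DMSO (3.78 ± 0.555) and HEK293T tunicamycin (1.53 ± 0.074). The libraries of DMSO 24 h overlapped those of its neighbours on both sides of that order, and no other neighbours overlapped. The HEK293T values rest on 66 to 86 counts a library under DMSO and 24 to 29 under tunicamycin. In these bulk samples CPM is a share of all RNA, and fewer cells that express a gene cannot be told apart from less of its RNA per cell.

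**Figure D1:**
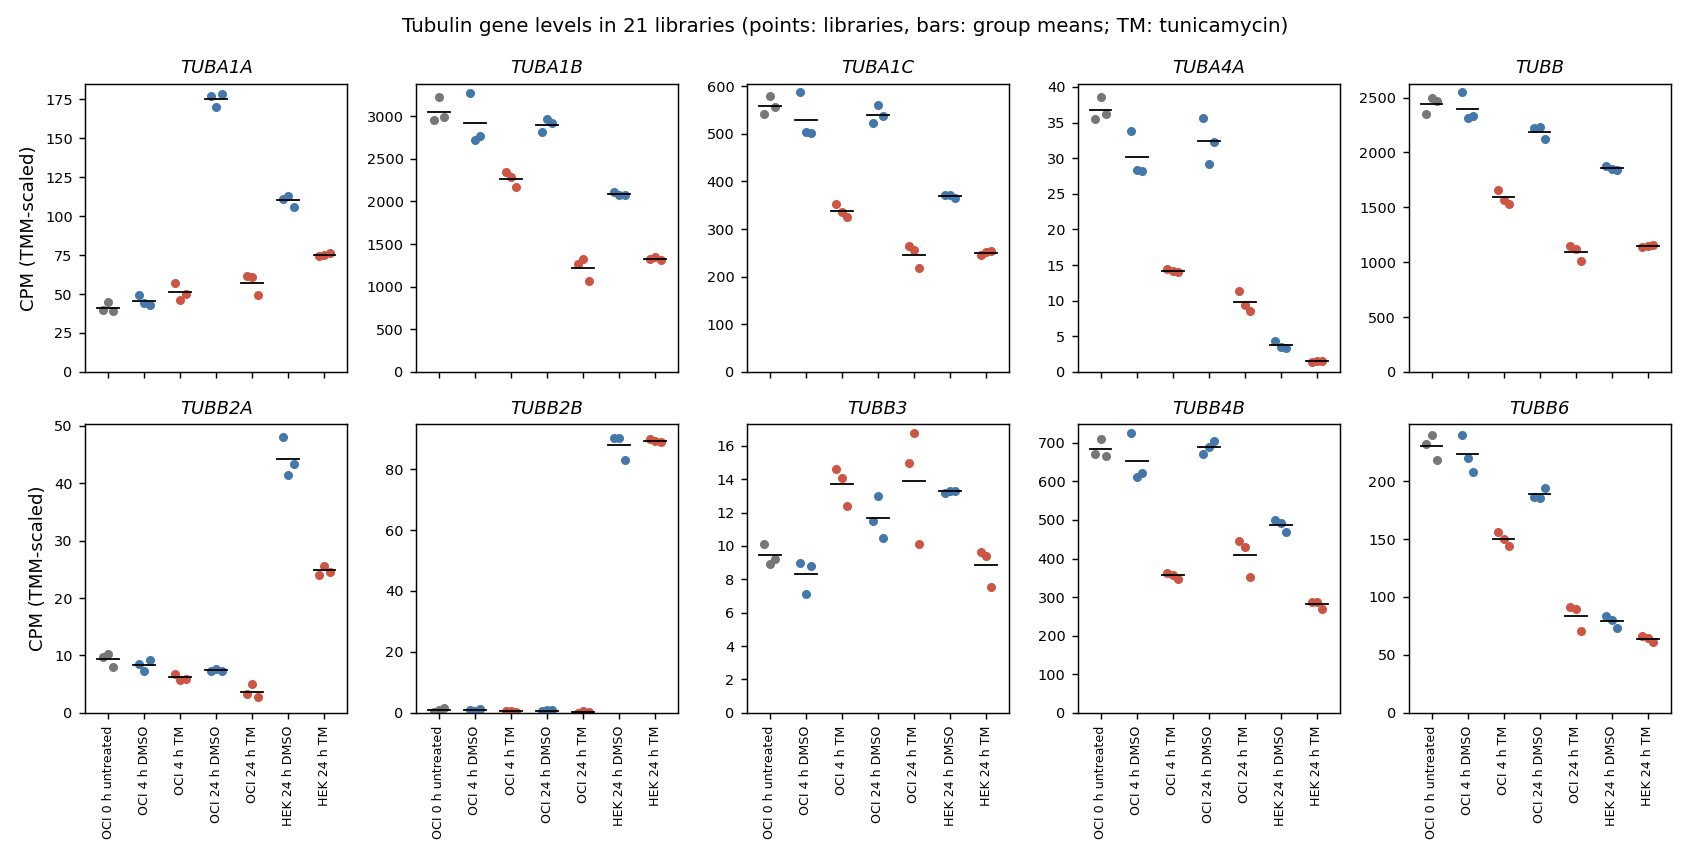
Level of the 10 tubulin genes in CPM (vertical axes, each from 0 on its own scale) in the 7 groups, with 1 point per library and a bar at the group mean; grey is untreated, blue DMSO and red tunicamycin (TM). TUBA4A goes from 30.1 to 14.2 and from 32.4 to 9.79 CPM in OCI-AML3, TUBA1A is high in DMSO at 24 h alone among the OCI-AML3 groups, TUBB3 is higher under tunicamycin at 4 h, and TUBB2B is at the same level in both HEK293T groups.

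Over the whole family, tunicamycin was accompanied by lower tubulin RNA in both lines. At 4 h in OCI-AML3, 7 of the 10 genes were lower and 1 was higher at an adjusted p of at most 0.05, where 37.5% of all genes tested passed that threshold and 18.9% did so downwards. TUBA4A alone also passed the log2 threshold of 1, which 1.47% of all genes did downwards. Their log2 fold changes had a median of -0.58, beside -0.02 over all genes. At 24 h in OCI-AML3, 9 of the 10 were lower and 8 passed both thresholds, where 51.1% of all genes passed the first threshold, 27.7% downwards, and 2.26% passed both downwards. Both counts include TUBB2B, which met the filter of 1 CPM mainly through HEK293T and whose OCI-AML3 libraries overlapped. The median of the 10 genes was -1.15, beside -0.01 over all genes. In HEK293T, 9 of the 10 were lower and TUBA4A alone passed both thresholds, where 25.7% of all genes passed the first, 13.1% downwards, and 0.55% passed both downwards. There the median was -0.62, beside -0.01. Since the genes were selected on these comparisons, nothing is read from the counts beyond the description.

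The call of TUBA4A past both thresholds at 4 h depended on 1 library: without DMSO replicate 1 its log2 fold change was -0.98 and the count was 0. At 24 h in OCI-AML3 the count of 8 was 5 without DMSO replicate 2, or tunicamycin replicate 1 or 3.

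**Figure D2:**
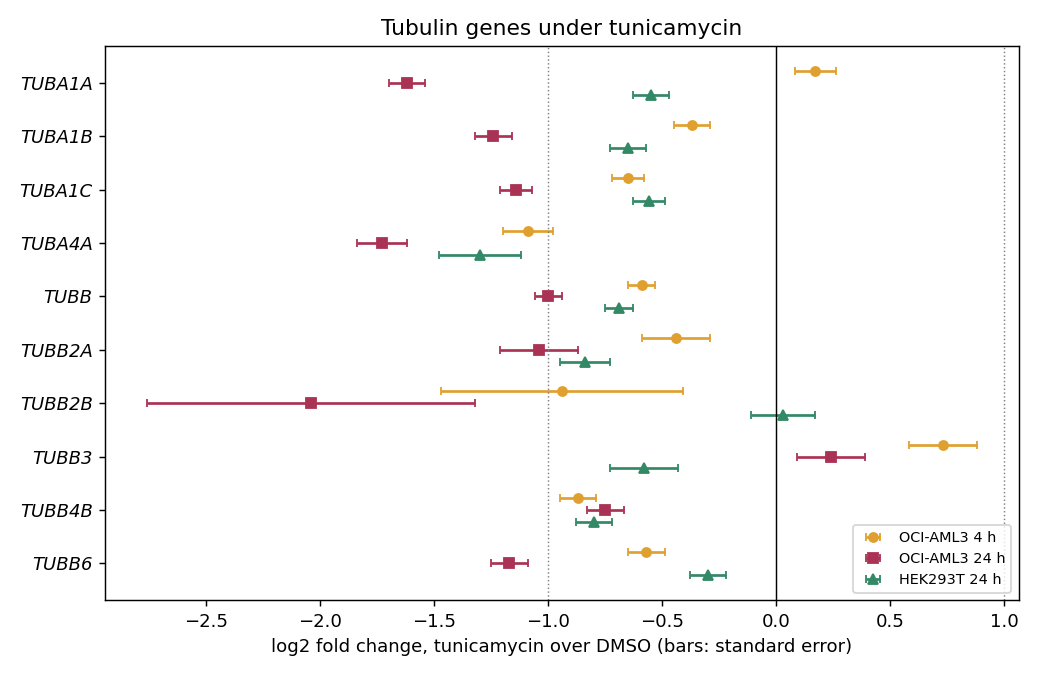
Log2 fold change, tunicamycin over DMSO, of each tubulin gene (horizontal axis; bars are the standard error of the fit) in OCI-AML3 at 4 h (circles), OCI-AML3 at 24 h (squares) and HEK293T at 24 h (triangles), with dotted lines at -1 and 1. TUBA4A is below -1 in all 3 comparisons, TUBB4B stays between -0.87 and -0.75, and TUBB3 is on the right of 0 in OCI-AML3 and on the left in HEK293T.

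TUBA1B, the principal alpha isotype of dividing cells, was at 3270, 2720 and 2770 CPM after DMSO for 4 h and 2350, 2280 and 2170 CPM after tunicamycin. At 24 h the values were 2810, 2970 and 2920 CPM against 1270, 1330 and 1070 CPM. In HEK293T they were 2110, 2070 and 2080 CPM against 1330, 1350 and 1310 CPM. The groups did not overlap in any of the 3 comparisons, and the log2 fold changes were -0.37 (SE 0.08), -1.24 (SE 0.08) and -0.65 (SE 0.08).

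TUBA1C, a widely expressed alpha isotype, moved likewise, from 587, 503 and 501 CPM to 352, 336 and 325 CPM at 4 h and from 523, 561 and 537 CPM to 264, 256 and 218 CPM at 24 h. In HEK293T it was at 371, 371 and 365 CPM under DMSO and 245, 251 and 253 CPM under tunicamycin. Its log2 fold changes were -0.65, -1.14 and -0.56, each with SE 0.07, and the groups did not overlap.

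TUBA1A, the alpha isotype best known from developing neurons, behaved differently in the early sample. At 4 h it was at 49.4, 44.4 and 43.2 CPM under DMSO and 57.2, 46.3 and 50.1 CPM under tunicamycin, groups that overlapped (log2 fold change 0.17, SE 0.09). At 24 h the DMSO libraries held 177, 170 and 178 CPM and the tunicamycin libraries 61.3, 60.6 and 49.6 CPM, a log2 fold change of -1.62 (SE 0.08). The tunicamycin level at 24 h, 57.2 CPM ± 6.57, was thus close to the 51.2 ± 5.55 of tunicamycin at 4 h, and the level that differed between the times was that of DMSO. In HEK293T TUBA1A was at 111, 113 and 106 CPM under DMSO and 74.1, 75.0 and 76.6 CPM under tunicamycin (log2 fold change -0.55, SE 0.08).

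Among the beta genes, TUBB, the main beta isotype of dividing cells, went from 2550, 2310 and 2330 CPM under DMSO to 1660, 1570 and 1530 CPM under tunicamycin at 4 h. At 24 h it was at 2220, 2230 and 2120 CPM against 1150, 1120 and 1010 CPM, and in HEK293T at 1880, 1850 and 1840 CPM against 1140, 1150 and 1160 CPM. None of these groups overlapped, and the log2 fold changes were -0.59, -1 and -0.69, each with SE 0.06.

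TUBB4B, a widely expressed beta isotype also used in cilia, gave nearly the same fold change each time. It was at 725, 611 and 622 CPM against 363, 358 and 347 CPM at 4 h, at 671, 689 and 704 CPM against 446, 431 and 353 CPM at 24 h, and in HEK293T at 501, 491 and 469 CPM against 286, 286 and 270 CPM. The log2 fold changes were -0.87, -0.75 and -0.80, each with SE 0.08. TUBB4B was the only one of the 10 genes whose fitted decrease in OCI-AML3 was smaller at 24 h than at 4 h, by 0.13 (SE 0.11) on the log2 scale, a difference little above its error.

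TUBB6, a beta isotype of many non-neural tissues, was at 240, 220 and 208 CPM against 156, 150 and 144 CPM at 4 h and at 186, 185 and 194 CPM against 91.6, 89.7 and 70.3 CPM at 24 h. In HEK293T it was at 83.4, 80.4 and 73.6 CPM against 66.0, 64.5 and 61.4 CPM. The groups did not overlap, and the decrease was smallest in HEK293T (log2 fold changes -0.57, -1.17 and -0.30, each with SE 0.08).

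TUBB3, the beta isotype used as a marker of neurons, went the other way in OCI-AML3. At 4 h it was at 8.97, 7.10 and 8.81 CPM under DMSO and 14.6, 14.1 and 12.4 CPM under tunicamycin, without overlap (log2 fold change 0.73, SE 0.15). At 24 h the DMSO libraries held 11.5, 13 and 10.5 CPM and the tunicamycin libraries 15, 16.8 and 10.1 CPM, which overlapped (0.24, SE 0.15). In HEK293T it was at 13.2, 13.3 and 13.3 CPM under DMSO and lower under tunicamycin, at 9.64, 9.37 and 7.52 CPM (-0.58, SE 0.15). All values of TUBB3 rest on 111 to 292 counts a library.

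TUBB2A and TUBB2B, beta isotypes expressed mainly in neural tissue, are neighbours on chromosome 6 with coding sequences that were 98.1% identical. TUBB2A was at 8.50, 7.30 and 9.27 CPM against 6.78, 5.75 and 5.95 CPM at 4 h and at 7.32, 7.59 and 7.32 CPM against 3.30, 4.99 and 2.72 CPM at 24 h, log2 fold changes of -0.44 (SE 0.15) and -1.04 (SE 0.17). In HEK293T it was at 48, 41.4 and 43.4 CPM under DMSO and 24.1, 25.6 and 24.6 CPM under tunicamycin (-0.84, SE 0.11). TUBB2B in the same HEK293T libraries was at 90.2, 90.2 and 83.1 CPM against 90, 89.4 and 88.8 CPM, groups that overlapped, with a log2 fold change of 0.03 (SE 0.14). When the counts of both genes were summed before the fit, the HEK293T value was -0.21 (SE 0.10). In OCI-AML3 TUBB2B held only 0 to 28 counts a library. It entered the tests with 1 CPM or more, before TMM scaling, in 9 libraries of both lines. Its log2 fold changes in OCI-AML3, -0.94 (SE 0.53) and -2.04 (SE 0.72), therefore carry large errors, and both comparisons overlapped.

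Levels of different genes can be compared only per length of transcript, and on that scale a few genes made up nearly all RNA of the 10. Of the CPM per kb of the 4 alpha genes, TUBA1B held 85.1 to 89.9% in the group means, TUBA1C 7.72 to 9.94%, TUBA1A 1.17 to 5.01% and TUBA4A 0.0786 to 0.848%. Of the 6 beta genes, TUBB held 57.9 to 66.4%, TUBB4B 23.9 to 34.8% and TUBB6 3.59 to 8.39%. TUBB2B held 0.0127 to 0.0317% in OCI-AML3 but 3.90 and 6.30% in HEK293T, above TUBB2A at 2.33 and 2.08%. The share of TUBB3 in the RNA of the 6 beta genes was 0.324% ± 0.0334 (SD, n = 3) under DMSO and 0.844% ± 0.0461 under tunicamycin at 4 h in OCI-AML3. These shares depend on the length used, and per kb of all annotated exons of each gene they were 0.115 and 0.304%.

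Summed per kb, the RNA of the 4 alpha genes under tunicamycin was 76.7% of its DMSO level at 4 h and 42.0% at 24 h in OCI-AML3, and 64.3% in HEK293T. The RNA of the 6 beta genes was 63.4, 53.0 and 63.1% of its DMSO level. Other tubulin genes are outside these sums, among them the alpha gene TUBA8. In OCI-AML3 TUBA8 was at a mean of 52.4 CPM under DMSO and 51.6 CPM under tunicamycin at 4 h, and at 79.9 and 75.3 CPM at 24 h. The ratio of alpha to beta RNA was 1.35 ± 0.0437 under DMSO and 1.63 ± 0.0151 under tunicamycin at 4 h, and 1.47 ± 0.0345 and 1.17 ± 0.0406 at 24 h, so that it was higher at 4 h and lower at 24 h. In HEK293T it was 1.26 ± 0.0183 and 1.29 ± 0.00437. The size of this ratio depends on the transcript lengths used, so it does not say whether alpha or beta RNA was the more abundant. The 10 genes together took 0.665% ± 0.0356 of all counts under DMSO and 0.462% ± 0.0137 under tunicamycin at 4 h, 0.606% ± 0.0111 and 0.298% ± 0.0158 at 24 h, and 0.567% ± 0.0092 and 0.353% ± 0.00333 in HEK293T.

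**Figure D3:**
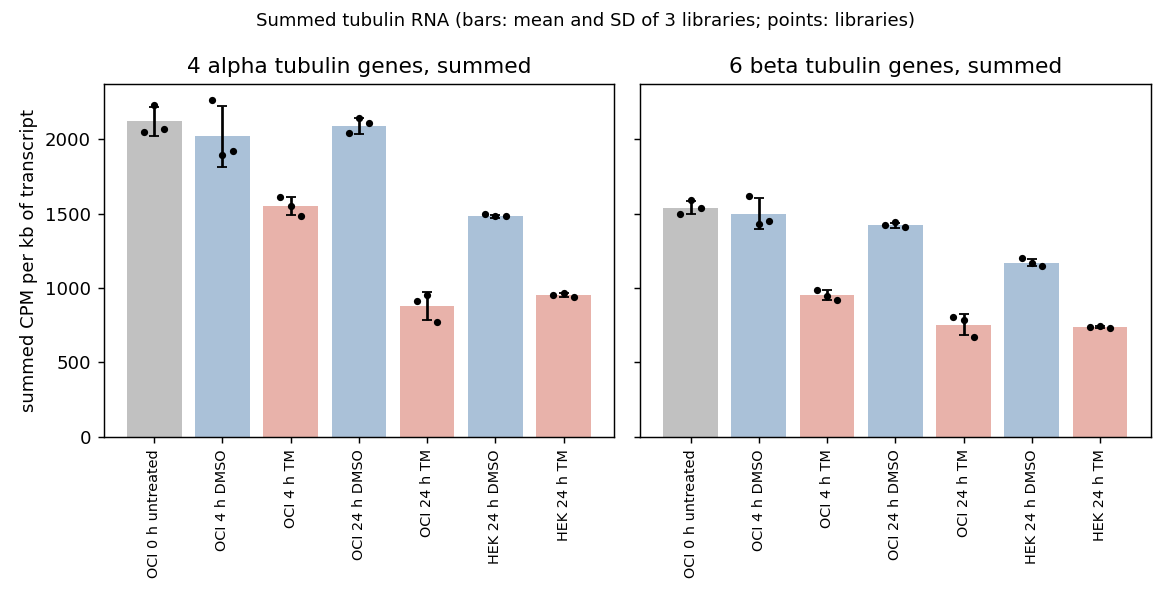
Summed level of the 4 alpha genes (left) and the 6 beta genes (right) in CPM per kb of canonical transcript, with bars for the mean and SD of 3 libraries and points for single libraries. Alpha tubulin RNA goes from 2020 to 1550 at 4 h and from 2090 to 878 at 24 h in OCI-AML3, and beta tubulin RNA from 1500 to 951 and from 1420 to 753.

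Set against the sum of the other alpha genes, which is mostly TUBA1B, TUBA4A was lower under tunicamycin. The log2 ratio of its counts to the summed counts of TUBA1A, TUBA1B and TUBA1C was -6.86 ± 0.02 under DMSO and -7.55 ± 0.04 under tunicamycin at 4 h, a difference of -0.69. At 24 h the ratios were -6.81 ± 0.18 and -7.29 ± 0.16, a difference of -0.48. In HEK293T they were -9.42 ± 0.19 and -10.08 ± 0.08, a difference of -0.66. The ranges of DMSO and tunicamycin libraries did not overlap in any of these comparisons. In fold change TUBA4A was the lowest of the 4 alpha genes in all 3 comparisons, although at 24 h in OCI-AML3 its -1.73 (SE 0.11) and the -1.62 (SE 0.08) of TUBA1A lay within their errors, while among all 10 genes TUBB2B, at 0 to 15 counts a library, had a lower fitted value at 24 h in OCI-AML3.

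The effect of tunicamycin on TUBA4A was more negative at 24 h than at 4 h in OCI-AML3 by 0.64 (SE 0.15) on the log2 scale. It was less negative in HEK293T than in OCI-AML3 at 24 h by 0.43, and the 95% interval of that difference ran from 0.00 to 0.86.

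The comparisons that tunicamycin does not enter were tested, with edgeR's quasi-likelihood test and p-values adjusted over all 14012 genes. They share DMSO libraries with the tunicamycin comparisons. With 4 h of DMSO against untreated OCI-AML3 cells, 0 of the 10 tubulin genes and 0% of all genes passed an adjusted p of 0.05, although 1160 genes and 1 of the 10 had an unadjusted p of at most 0.05. limma voom likewise gave 0 genes, and DESeq2 gave 19, none of them among the 10. TUBA4A was the gene with the unadjusted p: its log2 fold change was -0.29 (SE 0.10), all 3 DMSO libraries were below all 3 untreated libraries, and its adjusted p was 0.48.

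Between DMSO at 4 h and at 24 h in OCI-AML3, 3 of the 10 genes passed an adjusted p of 0.05, as did 42.6% of all genes. TUBA1A rose 3.84-fold, from 45.6 ± 3.28 to 175 ± 4.17 CPM (edgeR adjusted p = 7.5e-14). The summed counts of TUBA1A, TUBA1B and TUBA1C, mostly TUBA1B, differed by 0.05 (SE 0.08) on the log2 scale. TUBB3 rose by 0.50 on the log2 scale (SE 0.15, edgeR adjusted p = 0.013) and TUBB6 fell by 0.24 (SE 0.08, edgeR adjusted p = 0.019). Both of the smaller changes missed the threshold without DMSO 24 h replicate 2, with edgeR adjusted p of 0.062 for TUBB3 and 0.060 for TUBB6. TUBB3 also missed it without DMSO 4 h replicate 2 (edgeR adjusted p = 0.070), and TUBB6 without DMSO 4 h replicate 1 (0.084) or DMSO 24 h replicate 1 (0.052). TUBA4A differed by 0.10 (SE 0.10, edgeR adjusted p = 0.42, 95% interval -0.09 to 0.30).

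Between the lines, both under DMSO for 24 h, 8 of the 9 genes other than TUBB2B passed an adjusted p of 0.05, as did 82.7% of all genes, and 3 of them also passed the log2 threshold of 1, as did 45.2%. TUBA4A was at 0.117 times its OCI-AML3 level in HEK293T (log2 difference -3.10, SE 0.12, edgeR adjusted p = 1.1e-16), and TUBB6 was also lower there (-1.25, SE 0.08, edgeR adjusted p = 1.7e-12; -0.91 without TMM scaling, inside the log2 threshold). TUBB2A was 5.97-fold higher (edgeR adjusted p = 1.4e-14) and TUBB2B 118-fold higher in HEK293T. TUBB2B had only 6 to 15 counts a library in OCI-AML3 and met the filter mainly through the HEK293T libraries, so its value is a description and is in neither count. With the counts of TUBB2A and TUBB2B summed, the log2 difference was 4.02 (SE 0.12), far from that of either gene alone (2.58 and 6.88). The log2 differences of TUBA1A, TUBA1B, TUBA1C and TUBB4B lay between -0.67 and -0.47. TUBB was lower in HEK293T by a log2 difference of -0.24 (SE 0.06), which turned to 0.10 when library sizes were used without TMM scaling, a change that moved the median of all genes by 0.34. TUBB3 did not pass (0.18, SE 0.15, edgeR adjusted p = 0.25). Without TMM scaling TUBB3 passed, at 0.52, and TUBA1B did not, at -0.13.

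Other tubulin genes were counted as a list of 14, of which 7 were abundant enough to test, and 3 of the 7 passed an adjusted p of 0.05 in each tunicamycin comparison (2 lower, 1 higher), where 37.5, 51.1 and 25.7% of all genes passed at 4 h, at 24 h and in HEK293T. TUBB4A, a beta isotype of neurons and glia, fell by 0.89 (edgeR adjusted p = 0.00046), 1.07 (1.9e-05) and 1.08 (8.7e-06) on the log2 scale at 4 h, at 24 h and in HEK293T. TUBG1, the gamma tubulin that nucleates microtubules, fell by 0.53 (edgeR adjusted p = 4.9e-06), 1.22 (1.5e-11) and 0.39 (0.00023). TUBE1, the epsilon tubulin of centrioles, rose from 12, 10.7 and 9.50 CPM to 54.7, 60.2 and 64.1 CPM at 4 h (log2 fold change 2.48, edgeR adjusted p = 1.5e-14), and by 1.16 at 24 h (4.0e-08) and 0.84 in HEK293T (3.9e-07). TUBA8, a divergent alpha isotype, was at 49.4 to 58.1 CPM under DMSO and 50.3 to 52.4 CPM under tunicamycin at 4 h, with log2 fold changes of -0.02 at 4 h and -0.09 at 24 h that did not pass. In HEK293T it was at 8 to 21 counts a library, too few to read a fold change. TUBA4B, which overlaps TUBA4A on the opposite strand, was at 0 counts in 20 of 21 libraries and at 2 counts in the remaining one.

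The tubulin folding list holds the 8 subunits of the CCT chaperonin, which folds tubulin, prefoldin, which hands chains to it, and the cofactors that assemble dimers. At 4 h 7 of its 22 genes passed an adjusted p of 0.05 (5 lower, 2 higher), a smaller share than the 37.5% of all genes, with a median log2 fold change of -0.10. At 24 h 18 of 22 fell and none rose, where 27.7% of all genes fell, with a median of -0.50. In HEK293T 10 of 22 fell and none rose, where 13.1% of all genes fell, with a median of -0.23. At 24 h ARL2, a GTPase that works with the cofactors, fell by 0.93 (edgeR adjusted p = 1.3e-05), CCT7 by 0.83 (8.3e-09) and CCT3 by 0.82 (5.5e-09). At 4 h the prefoldin subunit PFDN6 fell by 0.73 (edgeR adjusted p = 8.5e-06), and in HEK293T CCT6A fell by 0.46 (2.6e-06). The count of 7 at 4 h was 3 without DMSO replicate 1, and the count of 10 in HEK293T was 7 to 9 on leaving out a library. These medians may be set beside -0.02, -0.01 and -0.01 over all genes.

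Of 12 genes for the decay of tubulin mRNA, that is TTC5, SCAPER and subunits of CCR4-NOT, 2 passed at 4 h, 6 at 24 h and 2 in HEK293T, in each case no larger a share than the 37.5, 51.1 and 25.7% of all genes. TTC5 was at 32, 28 and 28.2 CPM under DMSO and 29.4, 31.3 and 28.5 CPM under tunicamycin at 4 h, a log2 fold change of 0.02 (SE 0.08) that did not pass. It fell by 0.31 at 24 h (edgeR adjusted p = 0.0043) and stood at -0.09 in HEK293T, which did not pass. CNOT3, a subunit of CCR4-NOT, rose by 1.09 at 4 h (edgeR adjusted p = 8.0e-09), from 66.2, 85.9 and 72.2 CPM to 170, 160 and 147 CPM. SCAPER rose by 0.41 at 24 h (edgeR adjusted p = 0.0083) and by 0.45 in HEK293T (0.0061). The count at 24 h was 3 without tunicamycin replicate 1, and that in HEK293T was 1 without DMSO replicate 1.

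The enzymes that modify tubulin gave 8 of 18 tested genes past the threshold at 4 h (6 lower, 2 higher), 10 at 24 h (7 lower, 3 higher) and 9 in HEK293T (4 lower, 5 higher), out of 25 listed. The shares over all genes were 37.5, 51.1 and 25.7%, and those in OCI-AML3 lay near the list's. TTL, the ligase that adds tyrosine to alpha tubulin, fell by 0.26 at 4 h (edgeR adjusted p = 0.0091) but rose by 0.21 at 24 h (0.032) and by 0.32 in HEK293T (0.0019). VASH1, a vasohibin that removes the tyrosine, fell by 0.51 at 4 h (edgeR adjusted p = 8.3e-05). TTLL7, which adds glutamate chains to beta tubulin, had 4 to 11 counts a library under DMSO and 20 to 39 under tunicamycin in OCI-AML3, without overlap at either time. It is among the genes counted as higher, but it was below 1 CPM in every OCI-AML3 library without tunicamycin and met the filter through HEK293T and the tunicamycin libraries, so its values are a description. TTLL12, a tubulin ligase-like protein, fell by 0.76 at 24 h (edgeR adjusted p = 6.8e-08). The HEK293T count of 9 was 5 or 6, whichever single library was left out.

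Of 23 tested genes for proteins that bind, sever or nucleate microtubules (31 listed), 9 passed at 4 h (5 lower, 4 higher), 15 at 24 h (13 lower, 2 higher) and 7 in HEK293T (5 lower, 2 higher), beside 37.5, 51.1 and 25.7% of all genes. STMN1, which sequesters tubulin dimers, fell by 0.51 at 4 h (edgeR adjusted p = 5.4e-06), and its neural relative STMN3 fell by 0.64 at 24 h (0.00089). MAP7, which recruits kinesin, rose by 0.67 at 4 h (edgeR adjusted p = 0.00051) and fell by 0.59 at 24 h (0.0044). CLIP1, which tracks growing ends, rose by 0.98 at 24 h (edgeR adjusted p = 1.1e-07). The HEK293T count of 7 was 4 or 5, whichever single library was left out. The filter of 8 libraries left out genes expressed in the 6 HEK293T libraries alone. Among these, and chosen after their values were seen, the neuronal microtubule-associated protein genes MAP1B and MAP1A were not tested. MAP1B was at 68, 70.5 and 73.2 CPM under DMSO and 144, 135 and 136 CPM under tunicamycin. MAP1A was at 21.3, 22.3 and 24.2 CPM against 8.23, 6.26 and 7.92 CPM. The groups did not overlap for either gene. Of the others left out in this way, MAP9 was at a mean of 40.9 CPM under DMSO and 48.8 CPM under tunicamycin, and MAPT at 12.7 and 13 CPM.

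**Figure D4:**
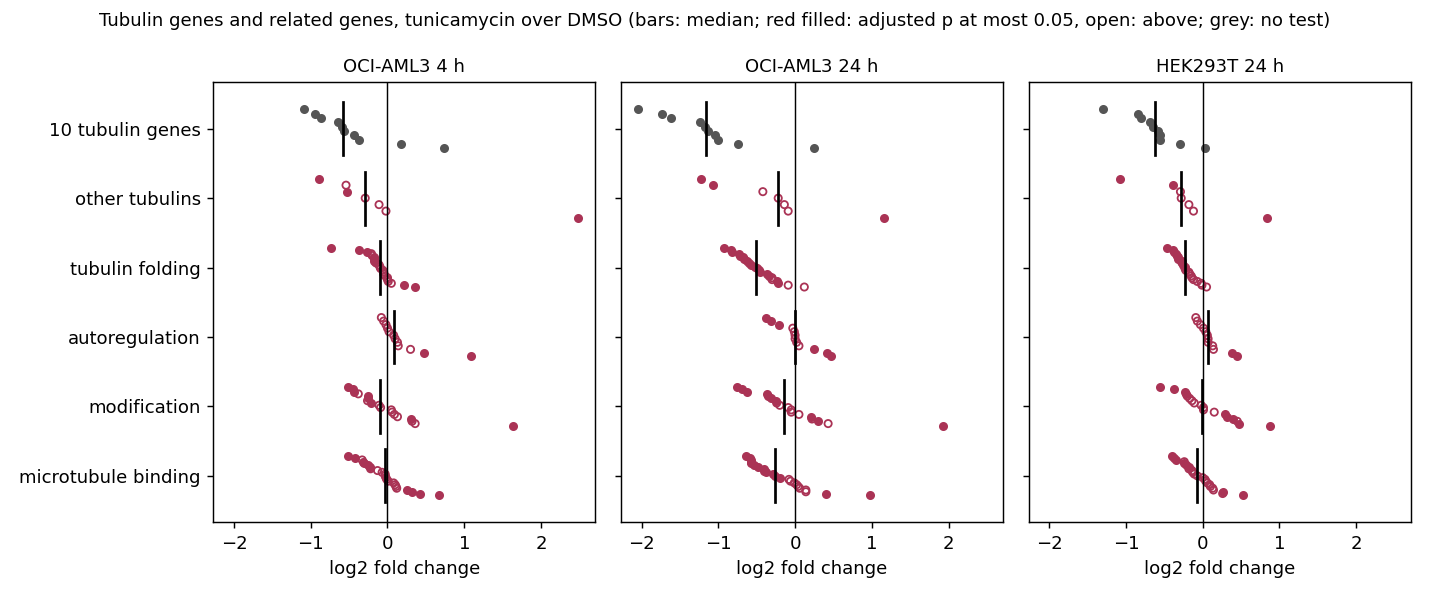
Log2 fold change, tunicamycin over DMSO, of the 10 tubulin genes (grey, without a test) and of the tested genes of 5 lists (red; filled at an adjusted p of at most 0.05, open above it), with a bar at each median, in OCI-AML3 at 4 h, OCI-AML3 at 24 h and HEK293T at 24 h. The single point far on the right among the other tubulins is TUBE1, at 2.48, 1.16 and 0.84, and the folding genes lie almost all below 0 at 24 h.

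The patterns over libraries most like that of TUBA4A were those of TUBA1C and TUBB. Likeness was measured as Pearson's r of log2 CPM over the 21 libraries after centring each line on its own mean, a description in which libraries of 1 group share treatment and depth. TUBA1C came first of 14011 genes (r = 0.978), followed by TUBB (0.974), RPA1, a single-strand DNA binding protein (0.971), the unnamed gene ENSG00000272540, which lies antisense to TUBB (0.970), and KDM1A, a histone demethylase (0.967). RPA1 and KDM1A moved less than the tubulins, with log2 fold changes of -0.31, -0.38 and -0.31 for RPA1 and -0.25, -0.42 and -0.26 for KDM1A. Of the other members, TUBB4B had r = 0.930 (rank 46), TUBA1B 0.925 (rank 57), TUBB2A 0.895 (rank 153) and TUBB6 0.894 (rank 156). TUBB2B had 0.571 (rank 2642), TUBA1A 0.266 (rank 5014) and TUBB3 -0.284 (rank 9572).

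Several of these genes overlap a gene on the opposite strand, and whether the counting used the strand is not given in the sources used here. TUBA1B-AS1, antisense to TUBA1B and TUBA1A, was counted at 610 to 1430 CPM by group and held 0.451 to 0.502 counts per count of TUBA1B in all 21 libraries. Its log2 fold changes were -0.38, -1.20 and -0.63, beside -0.37, -1.24 and -0.65 for TUBA1B. ENSG00000272540 held 0.183 to 0.200 counts per count of TUBB and had log2 fold changes of -0.55, -1.04 and -0.74. ENSG00000258232, antisense to TUBA1C, held 0.264 to 0.300 counts per count of TUBA1C and had log2 fold changes of -0.63, -1.08 and -0.52. Without strand, reads of such a pair cannot be told apart. With the antisense counts added the values were -0.36, -1.19 and -0.65 for TUBA1B, -0.57, -0.96 and -0.70 for TUBB, and -0.63, -1.08 and -0.56 for TUBA1C. No such sum was made for TUBA1A, which was at only 41.3 to 175 CPM by group. TUBA4A shares 628 bases with STK16 on the opposite strand, and the log2 fold changes of STK16 were -0.07, -0.31 and 0.17.

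The promoter sequences were searched for 5 motifs on both strands in the 300 bases from 250 before to 50 after the start site (RefSeq, GRCh38.p14). A CCAAT box (CCAAT or its complement ATTGG) was present in 7 of the 10 promoters, beside 34.6% of all 35116 promoters, and in none of these 300 bases for TUBA1B, TUBA4A and TUBB2A. The cAMP response element TGACGTCA was found in 1 of the 10, that of TUBB2A, beside 1.85% of all promoters. TGACGTGG (0.729% of all promoters), TGATGNAA (3.62%), and a CCAAT box followed after 9 bases by CCACG (0.0769%) were found in 0 of the 10. A match is a description and not a binding site, and no match says only that these letters are not in this window. The 250 bases upstream are shown for TUBA4A, with none of these motifs, for TUBB4B, with most CCAAT boxes, and for TUBB3, which was higher at 4 h. Motif letters are in capitals.
TUBA4A, chr2:219253919-219254168, minus strand: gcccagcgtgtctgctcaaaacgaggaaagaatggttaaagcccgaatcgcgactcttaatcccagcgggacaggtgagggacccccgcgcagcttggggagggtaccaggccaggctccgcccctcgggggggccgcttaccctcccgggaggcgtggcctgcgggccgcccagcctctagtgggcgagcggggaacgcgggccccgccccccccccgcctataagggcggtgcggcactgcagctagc
TUBB4B, chr9:137241037-137241286, plus strand: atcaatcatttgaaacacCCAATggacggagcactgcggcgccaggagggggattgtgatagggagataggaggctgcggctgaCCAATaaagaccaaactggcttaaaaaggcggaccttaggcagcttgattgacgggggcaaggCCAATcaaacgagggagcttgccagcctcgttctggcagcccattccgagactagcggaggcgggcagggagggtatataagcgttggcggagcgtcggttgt
TUBB3, chr16:89923092-89923341, plus strand: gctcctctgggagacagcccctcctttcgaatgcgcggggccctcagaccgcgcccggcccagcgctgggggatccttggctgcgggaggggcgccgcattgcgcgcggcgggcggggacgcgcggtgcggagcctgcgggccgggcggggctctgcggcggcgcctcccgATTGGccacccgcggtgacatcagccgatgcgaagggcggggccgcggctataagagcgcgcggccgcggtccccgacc
TUBB4B held 3 CCAAT boxes and TUBB3 1, on the opposite strand, while TUBA4A held 0 of the 5 motifs.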

How the data were processed

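Paired-end libraries were made by the authors from polyadenylated RNA. Reads were trimmed (seqtk), mapped to GRCh38 (STAR) and assigned to Ensembl 101 genes (RSEM). The authors deposited RSEM expected counts, neither scaled nor filtered, for 60671 genes in 21 libraries. Values that were not whole made up 3.54 to 4.22% per library, and all values were rounded. RSEM divides shared reads between paralogs.

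Genes with 1 CPM, before TMM scaling, in at least 8 libraries were tested (14012). The fit used edgeR 4.0.16 (R 4.3.3) with TMM scaling, its quasi-likelihood test, 7 groups and no block, with Benjamini-Hochberg adjustment. A call needed an adjusted p of at most 0.05 and, for the fold threshold, a log2 fold change beyond 1. The SE was derived from the F statistic. CPM uses TMM-scaled library sizes, and 95% intervals are normal intervals from the SE. limma voom (3.58.1), the authors' tool, and DESeq2 (1.42.0) were alternatives. On simulated counts the edgeR fit recovered 100% of the genes changed at a log2 fold change of 1.5 and 100% of those at 2.5, with 1 false call. The simulation was for tunicamycin at 4 h among 14012 genes. It used the same spread for every gene, changed no gene of low count and held no smaller changes, and the alternatives were not run on it.

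The members and lists were chosen with earlier results of these data known. All 10 members are named. Of other lists, genes are named only if their adjusted p was at most 0.05, their libraries did not overlap and they were among the 3 farthest from 0 in their direction, except TTC5, TTL, TUBA4B and TUBA8, named in any case, and MAP1A, MAP1B, MAP9 and MAPT, named after their values were seen. Positions, lengths and coding sequences are from GENCODE release 44, and promoters from RefSeq, where all 10 matched. Figures used matplotlib. Some items that meet these rules are not reported here.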

Additional observations from a re-analysis of the deposited data

Results flagged for a closer look

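For 7 of the 10 tubulin genes the effect of tunicamycin differed between 24 h and 4 h in OCI-AML3 by the interaction term of the model, and for 7 it differed between HEK293T and OCI-AML3 at 24 h. The second count includes TUBB2B, which met the filter mainly through the HEK293T libraries, and is 6 of 9 without it. Over all genes tested, 35.3% and 26.8% passed the same thresholds. The genes were chosen with these effects known, so the counts and values are a description, given without p.

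The log2 difference, 24 h minus 4 h, was -1.79 (SE 0.12) for TUBA1A, -0.88 (SE 0.11) for TUBA1B, -0.48 (SE 0.10) for TUBA1C and -0.64 (SE 0.15) for TUBA4A. Among the beta genes it was -0.41 (SE 0.09) for TUBB, -0.60 (SE 0.22) for TUBB2A and -0.60 (SE 0.11) for TUBB6. TUBA1A stands apart because its DMSO level was 45.6 CPM at 4 h and 175 CPM at 24 h, while its tunicamycin levels were 51.2 and 57.2 CPM. With TUBA1A, TUBA1B and TUBA1C summed, the time difference was -0.85 and the line difference 0.61.

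The log2 difference, HEK293T minus OCI-AML3, was 1.07 (SE 0.12) for TUBA1A, 0.60 (SE 0.11) for TUBA1B and 0.57 (SE 0.10) for TUBA1C. It was 0.31 (SE 0.09) for TUBB, 2.07 (SE 0.73) for TUBB2B and 0.87 (SE 0.12) for TUBB6. All of these but TUBB2B, whose log2 fold change in HEK293T was 0.03 (SE 0.14), were reduced in both lines and less in HEK293T. TUBB3 had the opposite sign, -0.82 (SE 0.21), with log2 fold changes of 0.24 (SE 0.15, overlapping libraries) in OCI-AML3 and -0.58 (SE 0.15) in HEK293T. The value of TUBB2B rests on 0 to 15 counts a library in OCI-AML3, and with TUBB2A and TUBB2B summed the line difference was 0.90 (SE 0.19).

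The time difference of TUBB2A and the line differences of TUBB and TUBB2B missed the threshold on leaving out most single libraries (TUBB2A and TUBB2B) or several (TUBB), and TUBB2A and TUBB2B also without TMM scaling, at -0.50 and 1.95. Over the libraries left out they ranged from -0.83 to -0.37 for TUBB2A, from 0.21 to 0.32 for TUBB and from 1.5 to 3.41 for TUBB2B.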

How the results depend on the processing

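TUBA4A kept its direction in each tunicamycin comparison under all alternatives, with log2 fold changes from -1.13 to -0.98 at 4 h, -1.80 to -1.60 at 24 h and -1.38 to -1.17 in HEK293T. Leaving out single libraries moved the count of genes past both thresholds to 0 at 4 h (without DMSO replicate 1, lowest 0, highest 1) and to 5 at 24 h (lowest 5, highest 7, without DMSO replicate 2 or tunicamycin replicate 1 or 3), and the count past adjusted p in DMSO 24 h against 4 h to 1 (lowest 1, highest 3, without DMSO 24 h replicate 2). For the difference of the tunicamycin effect between the lines, the count of 2 past both thresholds was 0 without TMM scaling, 1 with a filter of 1 CPM in 3 libraries, 1 with a replicate block, and 0 to 2 on leaving out a library (0 without HEK293T DMSO replicate 3); the cause was not tested. Fitting the compared groups alone gave 16 folding genes, 11 binding genes and 4 decay genes past adjusted p in HEK293T (10, 7 and 2 in the fit of 7 groups), 4 folding genes at 4 h (7) and 3 decay genes at 24 h (6). TUBA1A at 4 h became -0.40 when TUBA1A, TUBA1B and TUBA1C were summed, a sum made up mostly of TUBA1B, and TUBB between the lines became 0.10 without TMM scaling. Without TMM the median of all genes moved by 0.34 between the lines, -0.12 between the DMSO times, -0.11 for the line difference of the effect and by no more than 0.10 elsewhere. Same-numbered libraries correlated at -0.139 to 0.199 after removal of group means, and no comparison had all 3 pairs above 0.1. In HEK293T tunicamycin against DMSO all 3 libraries correlated best with their own number, although only at 0.0439 to 0.119. The replicate numbers were not taken to pair samples, and the replicate block moved no other count of the 10 genes by more than 1.5 times. Adding antisense counts was chosen after seeing the data. Depth limits TUBB2B in OCI-AML3 and TUBA4A in HEK293T.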
